A study of Mus musculus with 6 samples.

Results

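The genes described here encode proteins that decide how long an mRNA survives: the ZFP36 zinc finger family (Zfp36, Zfp36l1, Zfp36l2), the Regnase RNases (Zc3h12a, Zc3h12c), the AU-rich element binders Elavl1, Khsrp and Hnrnpd, and Cnot1, the scaffold of a deadenylase. They were chosen by name, by matching 10 listed symbols to the gene column of each deposited table, with earlier results of these data known. Of these 10 names, 9 had a row among the 25330 genes of the tables. The remaining name, Auf1, is an older symbol of Hnrnpd and has no row of its own.

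The cells were AML12, a hepatocyte line from mice transgenic for TGF-alpha, labelled as wild type. In the Control group, 3 libraries came from cells kept at 21% oxygen in routine medium with serum, an insulin-transferrin-selenium supplement and dexamethasone. In the group labelled H6R2, called H/R below, 3 libraries came from cells held for 6 h at 1% oxygen in medium without serum and glucose and then returned to oxygen for 2 h. Low oxygen, the loss of serum and glucose, and the return to oxygen therefore cannot be told apart, and the labels do not say that the replicates were separate cultures, so p-values measure only the spread between these samples.

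ZFP36 proteins bind the heptamer UAUUUAU and its relatives, called AU-rich elements, in the 3′ UTR of mRNAs for cytokines, growth factors and early response genes, and bring the CCR4-NOT complex, which shortens the poly(A) tail. The kinase MK2, downstream of p38, phosphorylates ZFP36 and blocks this recruitment, whereas ELAVL1 (HuR) binds similar elements and mostly protects the mRNA. Regnase-1, the product of Zc3h12a, cuts stem-loops in the 3′ UTR of inflammatory mRNAs. These factors are best known from immune cells, where they restrain inflammatory transcripts, and several of them also act in liver.

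The mRNAs of several of these factors carry AU-rich elements themselves. TATTTAT, the DNA spelling of the heptamer, was searched on the sense strand of the 3′ UTR of the longest protein-coding transcript of each gene (GENCODE M21, GRCm38), with overlapping matches counted. It occurred 3 times in the 3′ UTR of Zfp36, 3 times in that of Zfp36l1, 3 times in that of Zfp36l2, 2 times in that of Zc3h12c and 8 times in that of Elavl1. It did not occur in the 3′ UTR of Zc3h12a, Khsrp, Hnrnpd or Cnot1. One window of 30 bases from each of the 5 mRNAs with a match is shown, 5′ to 3′ on the minus strand, with the heptamers in capitals, because 4 of these 5 mRNAs, all but Elavl1, are the members that were higher after H/R.
Zfp36 (chr7:28376958-28376987): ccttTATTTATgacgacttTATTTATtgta
Zfp36l1 (chr12:80108422-80108451): cttatcaaaacgTATTTATtgccaaactat
Zfp36l2 (chr17:84184914-84184943): aactatttaactTATTTATtatcttgtgaa
Zc3h12c (chr9:52114862-52114891): tgctataatcatTATTTATaggaacaaaga
Elavl1 (chr8:4285777-4285806): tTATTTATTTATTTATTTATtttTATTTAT
The Elavl1 window holds a chain of overlapping heptamers, 5 in all, and the Zfp36 window holds 2 separate ones.

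Total counts ranged from 20438746 to 21854790 per library. One Control library stood apart: transcripts of adult liver such as Alb summed to 1103 counts in Control replicate 1, against 271 and 354 in the other Control libraries and 96 to 136 in H/R, so member results are also given without it. Hepatocyte identity was mixed: Hnf4a, a hepatocyte transcription factor, averaged 2912 normalised counts in Control, while Alb had 132 to 542 raw counts there, and of the 12 hepatocyte markers tested 8 were lower after H/R and 4, Krt8, Krt18, Cdh1 and Foxa2, were higher. The summed level of the hepatocyte list was 4371 to 4726 CPM (counts scaled to a common library total) in Control and 6334 to 6363 in H/R, most of it from Krt8 and Krt18. Of 18 markers of other liver cells in the tables, 10 had 3 counts or fewer in every library, among them Ptprc and Adgre1 of leukocytes and macrophages, Pecam1 and Cdh5 of endothelium, and Lrat of stellate cells. All 5 of these markers that could be tested were higher: Krt7, Krt19 and Sox9 of bile duct cells, and the macrophage markers Cd68, from 19.1 ± 3.45 to 130.4 ± 7.73 normalised counts, and Csf1r, from 46.8 ± 7.22 to 72.3 ± 7.16. The summed level of these 18 markers was 1326 to 1490 CPM in Control and 2449 to 2543 in H/R, most of it from the keratins Krt7 and Krt19. The part of these shifts in the results was not tested.

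All 9 decay factors passed the filter on low counts, and all passed the quasi-likelihood test of edgeR at an adjusted p under 0.05, with the Benjamini-Hochberg correction taken over 14020 genes. Zfp36, Zfp36l1, Zfp36l2 and Zc3h12c were higher after H/R, and Zc3h12a, Elavl1, Khsrp, Hnrnpd and Cnot1 were lower. Thus 4 members were called higher, against 31.0% of all genes tested, and 5 were called lower, against 31.8%. With a fold of at least 2 added, 1 member was called higher, Zfp36l1, against 4.25% of all genes, and 0 were called lower, against 4.27%. The groups did not overlap for any of the 9 members, and they did not overlap for 65.9% of all genes tested, so calls of this kind were common. The median log2 fold change was -0.16 over the members and -0.01 over all genes. In bulk RNA, fewer cells with a transcript and less of it per cell cannot be told apart.

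**Figure D1:**
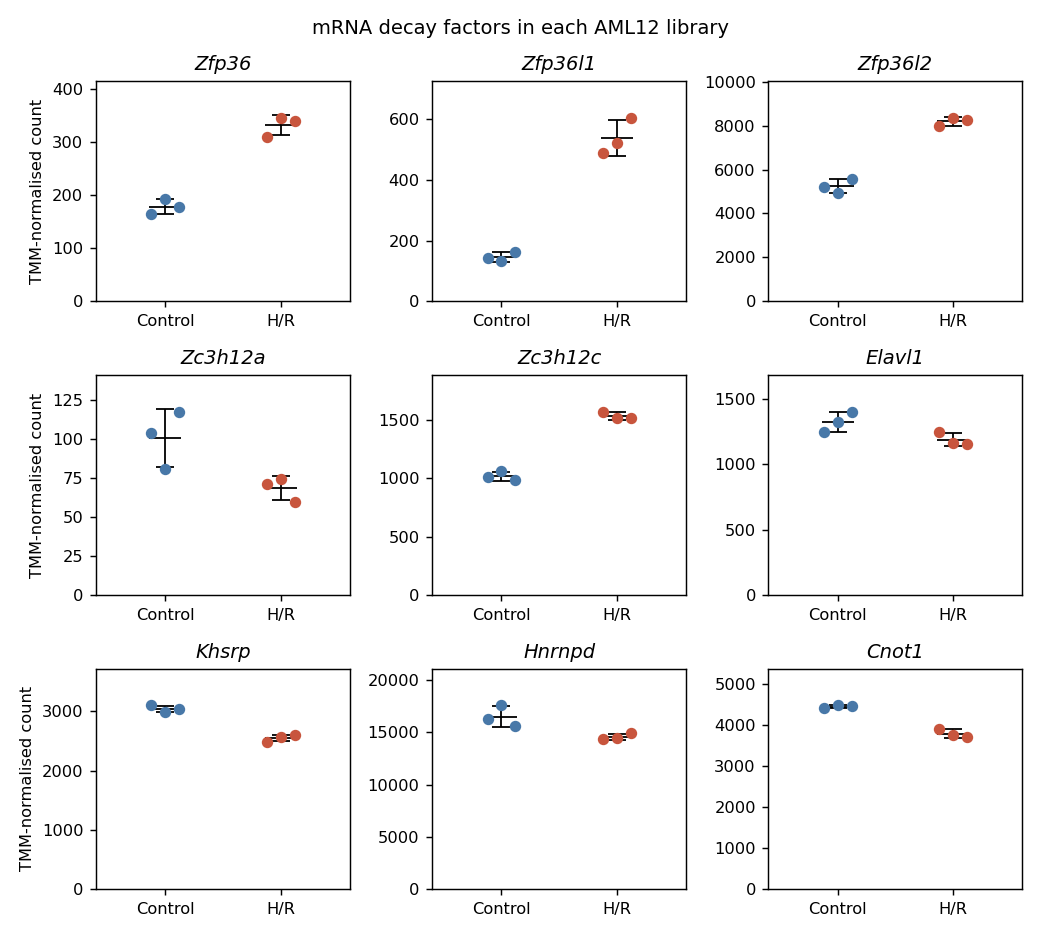
TMM-normalised counts of each member (vertical axes, from 0, a scale of its own in each panel) in the 3 Control and 3 H/R libraries, each point 1 library, with the mean and SD in black. The H/R points of Zfp36, Zfp36l1, Zfp36l2 and Zc3h12c lie above all Control points, and those of the other 5 genes lie below them, by the least for Elavl1.

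Zfp36l1, whose product is also called BRF1, changed the most. It was measured at 142, 134 and 163 TMM-normalised counts in Control and at 490, 521 and 605 in H/R. Each H/R library lay far above the highest Control library. From a Control mean of 146 ± 15.1 it rose to 539 ± 59.3 in H/R (SD over 3 libraries), which is 1.88 on the log2 scale with a standard error of 0.10 (adjusted p = 4.09e-18 by edgeR). Among the genes tested, 138, or 0.984%, had a log2 fold change at least as high, Zfp36l1 included. The gene lies at chr12:80107760-80113013, on the minus strand, and 1672 of its 2984 exon bases overlap Gm26669 on the opposite strand. The library kit was stranded, per the paper, but whether reads were counted by strand is not given in the sources used here. If they were, Gm26669 reads would not be among those of Zfp36l1. Gm26669 itself went from 87 ± 17.3 to 282 ± 43.5 normalised counts. After the Gm26669 count was subtracted from the Zfp36l1 count in each library, 72, 55 and 60 reads remained in Control and 231, 227 and 277 in H/R. These also did not overlap, with a normalised fold of 4.32 and an exact two-sided permutation p of 0.1, the smallest that 3 against 3 libraries can give.

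Zfp36 encodes tristetraprolin, the founding member of the family, and is itself an early response gene. Its normalised counts were 165, 193 and 178 in Control and 310.2, 346 and 341 in H/R. The lowest H/R library stood well above the highest Control library. The mean went from 179 ± 14.2 to 332 ± 19.4, a fold of 1.86 (log2 0.90, standard error 0.09, adjusted p = 3.71e-10 by edgeR).

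Zfp36l2, also called BRF2, was by far the most abundant of the family at the mRNA level. Its normalised counts were 5196, 4934 and 5586 in Control and 7963, 8358 and 8274 in H/R, again without overlap. The fold was the smallest of the family, 1.56, but with the tightest error (log2 0.65, standard error 0.04, adjusted p = 1.14e-14 by edgeR). No other gene overlaps its exons at chr17:84183931-84187947. The fourth family member of the mouse, Zfp36l3, had at most 2 counts in any library.

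**Figure D2:**
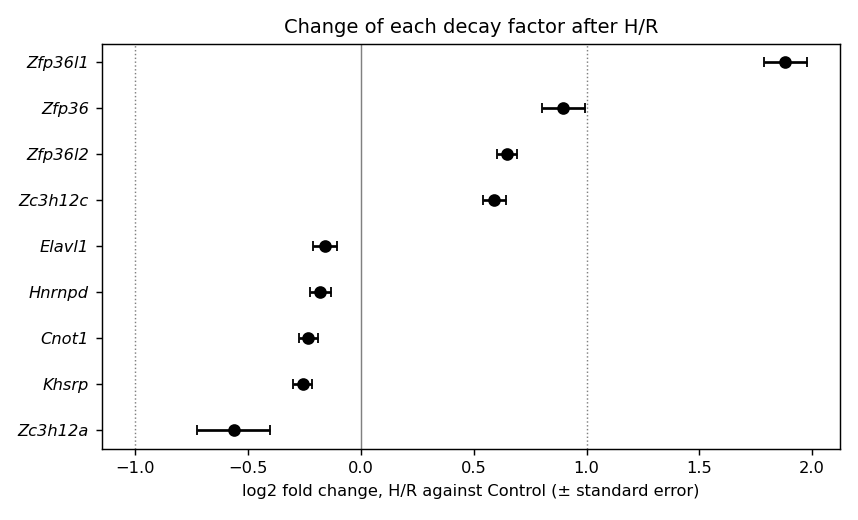
Fitted log2 fold change of each member, H/R against Control (horizontal axis), with its standard error as bars. The solid line marks no change and the dotted lines a fold of 2, which was passed by Zfp36l1 at 1.88 and by no other member.

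The Regnase pair moved in opposite directions. Zc3h12a was measured at 104, 81.0 and 118 normalised counts in Control and at 71.1, 74.4 and 60.0 in H/R. The lowest Control library was close to the highest H/R library, and the gene was the lowest of all members in reads. The mean fell from 101 ± 18.6 to 68.5 ± 7.57, a change of -32.3% (log2 -0.56, standard error 0.16, adjusted p = 0.00284 by edgeR). Zc3h12c, which encodes Regnase-3, had 1014, 1061 and 985 normalised counts in Control and 1574, 1520 and 1517 in H/R. Its H/R libraries lay within a narrow band far above Control, and the fold was 1.51 (log2 0.59, standard error 0.05, adjusted p = 2.29e-12 by edgeR). A further paralog, Zc3h12b, had 4 to 13 counts in a library and was not tested.

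The remaining members fell by small amounts. Elavl1 had 1249, 1321 and 1402 normalised counts in Control and 1243, 1160 and 1153 in H/R. Its groups were separated by a gap far smaller than the spread within either of them. Its change of -10.5% (log2 -0.16, standard error 0.05) had an adjusted p of 0.00945 by edgeR. The call was lost with DESeq2 (adjusted p = 0.07), without Control replicate 3 (0.077) and without H/R replicate 3 (0.0501). Khsrp, whose product KSRP recruits decay enzymes to AU-rich mRNAs, had 3104, 2999 and 3041 normalised counts in Control and 2490, 2561 and 2595 in H/R, a change of -16.4% (adjusted p = 2.72e-06 by edgeR). Both groups of Khsrp were tight, and the gap between them was wider than either. Hnrnpd, which encodes AUF1, had 16311, 17581 and 15636 normalised counts in Control and 14376, 14434 and 14894 in H/R, a change of -11.8% (adjusted p = 0.00111 by edgeR). Its lowest Control library was nearer to H/R than to its highest Control library. Cnot1, through which ZFP36 proteins reach the deadenylase, had 4418, 4490 and 4475 normalised counts in Control and 3918, 3754 and 3716 in H/R. This was a change of -14.9% with no overlap (adjusted p = 8.51e-06 by edgeR). Genes on the opposite strand overlapped at most 5.24% of the exon bases of any member other than Zfp36l1. This largest share was the one of Hnrnpd. The share of reads at stake can be larger than the share of bases. The Hnrnpd partner Gm17092 went from 4912 to 4249 mean normalised counts, against 16509 and 14568 for Hnrnpd. The Zfp36 partner Gm44710 went from 242.6 to 199.9, against 178.6 and 332.4 for Zfp36. Partners of the other members, where present, had fewer counts than their member. How many reads were shared was not tested, as the counting strand is not given in the sources used here.

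These small falls depend on scale in size but not in direction. With library totals alone in place of TMM, the median of all genes tested moved from -0.01 to -0.12 on the log2 scale. On that scale Elavl1 stood at -0.27, Hnrnpd at -0.28, Cnot1 at -0.34 and Khsrp at -0.36, all below the median. Without Control replicate 1, all 9 members kept their direction and their call, with Zfp36l1 at 1.86, Zfp36 at 0.84, Zc3h12a at -0.54 (adjusted p = 0.0116 by edgeR) and Elavl1 at -0.20.

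Levels of different genes were compared per exon length, in RPKM. That length takes all annotated exons together, 10363 bases for Elavl1, 17169 for Cnot1 and 2984 for Zfp36l1. Their longest protein-coding transcripts have 5743, 8390 and 2990 bases, so levels and order depend on the length used. In Control, Hnrnpd was highest at 110 ± 5.82 RPKM, followed by Zfp36l2 at 72.7 ± 5.51, Khsrp at 37.4 ± 0.68, Cnot1 at 12.7 ± 0.28, Zc3h12c at 7.30 ± 0.23 and Elavl1 at 6.26 ± 0.46. Zfp36 at 2.52 ± 0.21 and Zfp36l1 at 2.40 ± 0.28 did not differ beyond their spread, and Zc3h12a was lowest at 1.72 ± 0.33 (SD, n = 3). After H/R, Zfp36l2 led at 106 ± 3.25 RPKM, with Hnrnpd second at 90.2 ± 2.60. Zfp36l1, at 8.22 ± 0.98 as deposited, stood above both Zfp36 at 4.36 ± 0.28 and Elavl1 at 5.21 ± 0.19. That place in the order depends on the length used for each gene and on the reads shared with Gm26669. After their subtraction Zfp36l1 was at 3.92 ± 0.30 RPKM over its whole exon length, below both, and at 8.92 ± 0.69 over the 1312 exon bases that Gm26669 does not share, above both. The corresponding Control levels were 0.97 ± 0.12 and 2.22 ± 0.27, and the subtraction was chosen after the data were seen. Zc3h12a remained last at 1.08 ± 0.11.

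Within the ZFP36 family, the summed level went from 77.6 ± 5.77 to 118 ± 4.31 RPKM. Of this rise of 40.7 RPKM, Zfp36l2 made up 81.2%, Zfp36l1 14.3% and Zfp36 4.52%, so the gene with the smallest fold carried most of the added mRNA. The share of Zfp36l1 in the family was 2.99% to 3.23% in the Control libraries and 6.55% to 7.66% in H/R as deposited. With the Gm26669 reads taken away it was 1.15% to 1.48% and 3.22% to 3.66% per whole exon length, and Zfp36l1 then made up 7.78% of the family's rise. As deposited, Zfp36l2 gave way from 93.7% to 89.4%, and Zfp36 stood at 3.26% ± 0.39 and 3.68% ± 0.11, overlapping between groups (exact permutation p = 0.3). In the Regnase pair, Zc3h12a made up 19.6%, 15.3% and 22.1% of the summed RPKM in Control and 9.69%, 10.4% and 8.58% in H/R. Its share was lower in every H/R library than in any Control library, by 9.46 percentage points on average (exact permutation p = 0.1, the smallest possible), and by 4.76 points when summed counts, which favour the longer Zc3h12c, replaced RPKM.

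**Figure D3:**
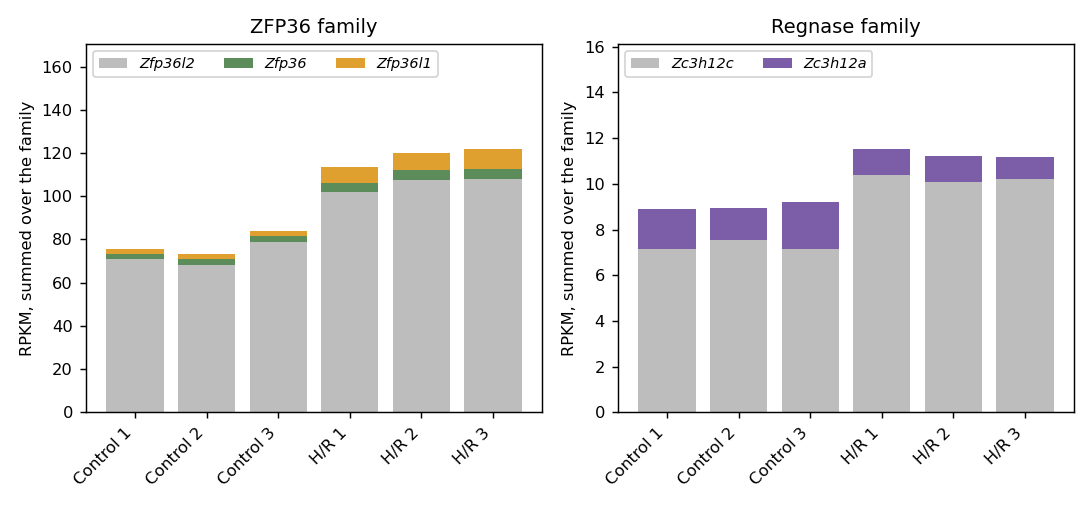
RPKM of the ZFP36 family (left) and of Zc3h12a and Zc3h12c (right), stacked for each of the 6 libraries, from 0. Zfp36l2 fills most of each ZFP36 bar while the Zfp36l1 segment, drawn as deposited with the reads that Gm26669 may share, widens from about 3.09% to 6.94% of it, and the Zc3h12a segment shrinks as Zc3h12c grows.

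The balance between the decay-promoting ZFP36 mRNAs and Elavl1, whose product binds similar elements, was followed as a ratio of RPKM in each library. Zfp36l1 stood at 0.395, 0.351 and 0.404 of Elavl1 in Control and at 1.37, 1.56 and 1.82 in H/R. As deposited, the ratio lay below 1 in every Control library and above 1 in every H/R library. The second depends on how the reads and bases shared with Gm26669 are treated, and on the length used for Elavl1. With the Gm26669 reads taken away and the whole exon length kept, it was 0.140 to 0.190 in Control and 0.695 to 0.834 in H/R, below 1 throughout. Over the exon bases that Gm26669 does not share, it was 0.318 to 0.431 in Control and 1.58 to 1.90 in H/R. The groups did not overlap either way. Zfp36 to Elavl1 was 0.379 to 0.437 in Control and 0.745 to 0.891 in H/R, and Zfp36l2 to Elavl1 was 11.0 to 12.2 and 18.8 to 21.1. Over the 7 ratios compared, each without overlap had an exact permutation p of 0.1, or 0.117 after Benjamini-Hochberg adjustment, and Zfp36 to Zfp36l2 had 0.2.

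Direction and AU-rich content of the members can be set side by side. Of the 5 members with at least 1 heptamer in the 3′ UTR, 4 were higher and 1, Elavl1, was lower. Of the 4 members without one, 0 were higher and 4 were lower. The same count was made over the 10914 genes tested that had an annotated 3′ UTR, with no test, since genes with many heptamers also had long and AU-rich 3′ UTRs. The median log2 fold change was -0.05 for the 7630 genes with 0 heptamers, 0.04 for the 2156 with 1, 0.13 for the 719 with 2 and 0.19 for the 409 with 3 or more. The share called higher went from 29.6% through 38.5% and 43.8% to 51.3% along the same groups, against 33.1% over all of these genes. The share called lower went from 36.6% through 32.4% and 24.9% to 24.0%, against 34.5% over all of them. Each H/R library, taken against the Control mean, gave the same order of the groups. The 3 comparisons share that mean, so they are not independent. With library totals the median stood at -0.16 for 0 heptamers and at 0.09 for 3 or more.

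Length and base content moved along with the heptamers. The median 3′ UTR length was 838, 1824, 2621 and 3403 bases in the groups with 0, 1, 2 and 3 or more heptamers, and the median A plus T content was 54.1%, 57.3%, 59.3% and 59.6%. Among 3′ UTRs of over 1000 to 2000 bases, the median log2 fold change was -0.04, 0.03, 0.14 and 0.27 in the same order. Over 2000 to 4000 bases it was -0.04, 0.07, 0.08 and 0.16. Above 4000 bases it was 0.08, 0.12, 0.13 and 0.14, so the groups lay closer together there. Zfp36, Zfp36l1 and Zfp36l2 lay above the median of their group and Elavl1 lay below it. The part of A plus T content was not tested.

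**Figure D4:**
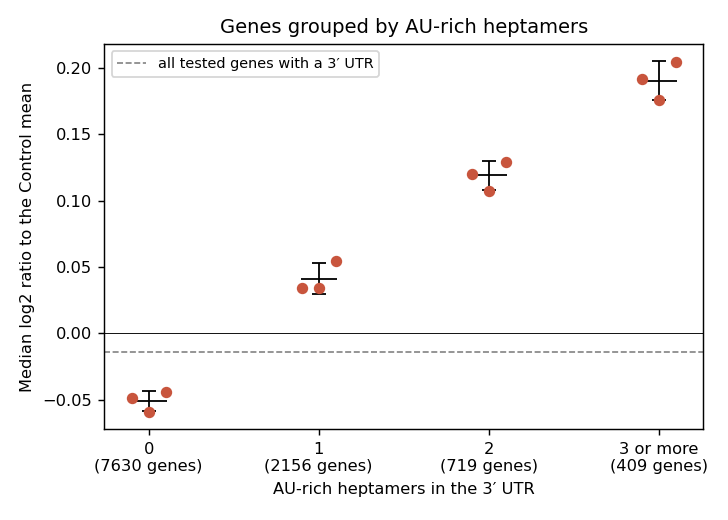
Median log2 ratio of TMM-normalised counts to the Control mean (vertical axis) for genes grouped by the number of TATTTAT heptamers in the 3′ UTR (horizontal axis), each point 1 H/R library, with mean and SD in black. The SD is over the H/R libraries and leaves out the spread between Control libraries. The groups step up from about -0.05 to 0.19, and the dashed line marks all 10914 genes.

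The promoter of Zfp36 is shown because Zfp36 is induced by serum as an early response gene in other cells, and the groups differed in serum. Serum was present in Control and left out for the hypoxia of H/R, the group in which Zfp36 was higher. Whether serum was restored on the return to oxygen is not stated. The part of serum or of this promoter in the rise was not tested. In RefSeq (GRCm38.p6), the 120 bases before the start site are chr7:28379229-28379348 on the minus strand, printed 5′ to 3′ with a CArG box in capitals, the element bound by serum response factor.
Zfp36: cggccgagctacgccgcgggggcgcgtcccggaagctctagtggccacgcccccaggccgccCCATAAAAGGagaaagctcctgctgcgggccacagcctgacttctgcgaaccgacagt
The box begins 58 bases before the start site and shares 1 base with a GC box, CCGCCC on this strand, that begins at -63. In the annotation used for counting, Zfp36 spans chr7:28376784-28380253 and all of its 3470 bases are exonic. The printed bases therefore lie inside its counted exons, and the RefSeq start site is not its 5′ end there. On both strands of all 32851 RefSeq promoter windows, of 250 bases before to 50 after a start site, a CArG box occurred in 1.63%, the GC box GGGCGG in 35.7%, the HIF core ACGTG in 19.6% and an NF-kB motif in 6.93%. Among the 7 members with a window, CArG boxes were found for Zfp36, which rose, and for Hnrnpd, which fell. The HIF core matched in Hnrnpd alone and the NF-kB motif in none of the 7. GC boxes were found for Zc3h12a, Hnrnpd, Khsrp, Zc3h12c and Zfp36. Zfp36l2 and Cnot1 had no window.

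Genes around the members were described by lists, and because library totals shift all genes downward, the split under that scaling is given beside each list that it changed. Over all genes tested, 4353 were higher and 4453 lower with TMM, against 3346 and 5478 with library totals. The ZFP36 partner complex CCR4-NOT with its TOB and BTG adaptors had 14 other genes, all tested, of which 7 were higher and 4 lower (5 and 5 with library totals), with a median log2 fold change of 0.15. The 7 with a heptamer had a median of 0.11 and the 7 without one a median of 0.26. The adaptors carried the large rises: Btg2 went from 76.1 ± 2.36 to 233 ± 32.6 normalised counts (log2 1.61, adjusted p = 2.39e-13) and Btg1 from 642 ± 50.8 to 1727 ± 83.5 (log2 1.43, adjusted p = 3.63e-21), both by edgeR. The catalytic subunit Cnot6 fell from 2233 ± 83.5 to 1109 ± 52.4 (log2 -1.01, adjusted p = 8.81e-19 by edgeR). Of the other catalytic subunits, Cnot6l rose by 0.24 (adjusted p = 0.00353), and Cnot7 at -0.12 (adjusted p = 0.0644) and Cnot8 at 0.02 (adjusted p = 0.793) did not pass. These 3 and Tob1, which rose by 0.72 on the log2 scale, were named after their values were seen.

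On the lists of decapping, 5′-3′ decay and the exosome, the directions were mixed or downward. The list of decapping and 5′-3′ decay also held the deadenylase genes Pan2, Pan3 and Parn. Of its 18 genes tested, 7 were higher and 7 lower (5 and 8 with library totals), with a median log2 fold change of 0.0045. Patl1, a decapping activator, rose by 0.85 and Lsm6, of the LSM ring that loads on shortened tails, fell by 0.59 on the log2 scale. Lsm2, named after its values were seen, was the 1 gene of this list past a fold of 2 (log2 -1.11). Of 14 genes of the exosome and its SKI helper, which degrade mRNA from the 3′ end, 9 were lower and 2 higher (10 and 0 with library totals), with a median of -0.22. Exosc7 fell by 0.49 and Wdr61 by 0.47, and no gene of this list passed a fold of 2.

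The upstream kinase axis and other mRNA stability binders were also mixed. The list of this axis held kinases of the p38 branch, phosphatases and 14-3-3 genes, and also Ikbkb, Irak1, Btrc and Akt1. Not all of their products act on ZFP36 proteins directly. Of its 20 tested genes, 6 were higher and 6 lower (3 and 11 with library totals), with a median of -0.06. Mapkapk2, which encodes MK2, rose from 1383 ± 66.5 to 2668 ± 183 normalised counts (log2 0.95, adjusted p = 3.89e-17 by edgeR). Dusp1, the phosphatase that switches off p38, rose from 418 ± 51.7 to 1113 ± 30.8 (log2 1.41, adjusted p = 5.15e-18 by edgeR). Mapk14, which encodes p38 alpha, was lower at -0.35 (adjusted p = 8.78e-06), named after its values were seen. Of 24 other stability binders tested, 12 were higher and 7 lower (9 and 9 with library totals), with a median of 0.10, or -0.0048 under that scaling, which moved the median of all genes by a like amount. The cytoplasmic polyadenylation factor Cpeb4 rose by 1.45 and the mRNA-stabilising Igf2bp2 by 0.92. Rc3h1 and Rc3h2, the Roquin genes whose products recognise similar stem-loops as Regnase-1, rose by 0.23 and 0.26, named after their values were seen.

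mRNAs known from other cells as targets of the members were mostly higher. Of 32 listed ZFP36 targets, 23 were tested, 18 were higher, 3 lower and 12 higher by a fold of at least 2, with a median log2 fold change of 1.07 against -0.01 over all genes, and the same split with library totals. The list was written from general knowledge, with earlier results of these data known, and holds many early response genes. No binding was measured in these cells. Cxcl2, a neutrophil chemokine with 7 heptamers in its 3′ UTR, went from 4.11 ± 1.93 to 72.1 ± 7.09 normalised counts (adjusted p = 1.4e-13 by edgeR). Its raw counts were 6, 2 and 5 in Control and 60, 73 and 73 in H/R. It thus passed the filter on low counts through its H/R libraries alone, and its fold rests on few Control reads. With at least 10 counts required in every library, 20 genes of this list were called instead of 21. Ptgs2, the inducible cyclooxygenase with 6 heptamers, went from 43.5 ± 7.42 to 380.4 ± 27.8 (adjusted p = 2.75e-21 by edgeR). The transcription factor gene Fos, with 2, went from 57.8 ± 7.08 to 240.4 ± 19.3 (adjusted p = 8.09e-16 by edgeR). Among targets without the heptamer, the monocyte chemokine Ccl2 rose by 2.15, the urokinase receptor Plaur by 1.95 and Myc by 1.86 on the log2 scale. By heptamer the list went the other way from the members: its 4 tested genes without one were all higher, with a median of 1.91, and of the 19 with at least 1, 14 were higher and 3 lower, with a median of 0.89. The 3 that were lower, named after their values were seen, were Ccnd1 (-0.61), Bcl2 (-0.76) and Sgk1 (-0.17). Cxcl1 (-0.01, adjusted p = 0.899) and Csf3 (0.16, adjusted p = 0.643) did not pass, and both are also named after their values were seen. The classic targets Tnf and Il6 had at most 2 counts in any library, which is under the floor of 3 counts used here, so a change was not detectable at this depth.

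The Regnase target list was short, with 9 of 16 genes tested, and 6 of its listed genes are also on the ZFP36 list. Of the 9, 6 were higher and 2 lower, with a median of 1.34, which was 0.42 over the 5 with a heptamer and 1.74 over the 4 without. Cxcl2, with few Control reads, is on this list too. With at least 10 counts required in every library, 7 of its genes were called instead of 8. The early response transcription factor Egr1 rose from 17.1 ± 6.46 to 1633 ± 74.6 normalised counts (log2 6.56) and Lcn2, an iron-binding acute phase protein, from 326 ± 40.5 to 824 ± 20.8 (log2 1.34). Tfrc, the transferrin receptor and the textbook Regnase-1 target for iron uptake, fell from 2610 ± 128 to 799 ± 61.0 (log2 -1.71, adjusted p = 1.13e-23 by edgeR). Nfkbiz, named after its values were seen, fell by 0.70.

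**Figure D5:**
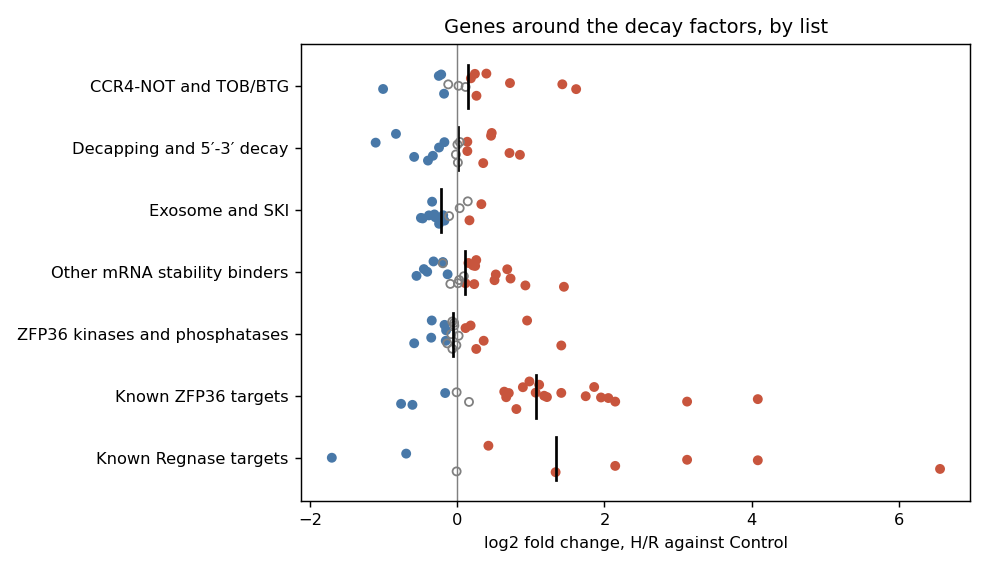
Fitted log2 fold change, H/R against Control (horizontal axis), of each tested gene of the 7 lists, red for called higher, blue for called lower and open grey for neither (edgeR, adjusted p under 0.05), with the list's median as a black bar. The target lists sit to the right, at medians of 1.07 and 1.34, and the exosome list to the left at -0.22.

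The genes whose profile over the 6 libraries was nearest to a member were found by Euclidean distance of log2 normalised counts, centred on the Control mean, among 10177 genes with a mean of at least 100 normalised counts. Near to Zfp36 were Intu (distance 0.114) and Pawr (0.129). Nearest to Zfp36l1 were Cxcl3 (0.253), Hk2 (0.263) and Pvr (0.274), so a chemokine and a glycolytic enzyme rose by about as much, 1.94 and 1.92 on the log2 scale. For Zfp36l2 they were Ppp1r15b (0.033), Cpe (0.051) and Eef2 (0.068), at closer distances than for any other member compared. For Zc3h12a they were Prox1 (0.250), Extl2 (0.267) and Mis18a (0.274). With 6 libraries in 2 groups, such a distance mainly reads the size of the change.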

How the data were processed

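RNA-seq libraries of AML12 cells, 3 Control and 3 H/R, were read as deposited, 1 table per library. The authors trimmed reads with Trimmomatic 0.36, mapped them to GRCm38 and counted them with featureCounts of Subread 1.5.1, per the labels and the paper. The deposited counts are raw, whole reads per gene, and the deposited RPKM values divide them by exon length and library total (recomputed within 1.13e-06). The library kit was stranded, per the paper, but the counting strand was not given in the sources used here. In 24 rows the gene name had become a date, and these are not named.

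Counts were fitted in R 4.3.3 with edgeR 4.0.16 (filterByExpr, TMM, robust glmQLFit, glmQLFTest), over 14020 genes, with Benjamini-Hochberg adjustment at 0.05. The script recovered known changes in simulated data. Alternatives used DESeq2 1.42.0 and limma 3.58.1, other scalings and filters, and left out each library. Normalised counts are TMM-scaled, and SD is over 3 libraries. Exact permutation tests were two-sided. Replicate pairs of a group differed by more than sampling noise (chi-square divided by degrees of freedom, 2.12 to 15.0), so each was counted as 1 sample.

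The members and lists were chosen with earlier results of these data known. From each list the text names up to 6 genes with adjusted p under 0.05, a fold of at least 2 and a mean of at least 10 normalised counts, or, where fewer than 2 pass, the 2 of smallest adjusted p, and marks the few others. For Zfp36, Zfp36l1, Zfp36l2 and Zc3h12a the 3 genes of nearest profile are named, except 1 that is not reported here. 3′ UTRs came from GENCODE M21, promoters from RefSeq (7 members matched), and figures were drawn with matplotlib 3.10.9.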

Additional observations from a re-analysis of the deposited data

How the results depend on the processing

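Across 9 alternatives with all libraries and 6 that left out 1 library, 8 to 9 members were called, and no member changed direction. Calls were common among all genes too: the main fit called 8806, with 31.0% of the genes tested higher and 31.8% lower. The alternatives with all libraries called 7471 (DESeq2) to 8841 genes, and those without 1 library 8105 to 8521. Whether members were called more often than other genes was not tested. With a fold of 1.5 in place of 2, 4 members were called instead of 1. The share of all genes at that fold was not counted, so the 4 cannot be set against it. Zc3h12c passed narrowly, at a fold of 1.51 (log2 0.59), and stood at 0.49 on the log2 scale with library totals. With summed counts in place of summed RPKM, the fall of the Zc3h12a share was -4.76 instead of -9.46 percentage points, and without 1 library it was -11.3 to -7.91. The excess of AU-rich genes over all genes was 0.13 with the 10 or more ATTTA group, against 0.20 with TATTTAT. Same-numbered libraries showed no shared deviation (correlations -0.03, 0.00 and -0.01), and the other pairings gave -0.05 to 0.06. With 3 libraries in each group this cannot exclude a small shared batch. With the replicate block 9 members were called, the same 9, and the genes called in each list were also the same. Taking the Gm26669 reads from Zfp36l1 changed the rise of its family share from 3.85 to 2.15 percentage points over the whole exon length and to 4.62 over the unshared bases. Genes at 3 counts or fewer were too shallow for a fold.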
